A study of Mus musculus with 4 samples.

Results

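The genes described here encode 36 enzymes and carriers of amino acid, polyamine and methionine metabolism, chosen by name from the pathways, by a rule that uses no measured value but was written with earlier results of these data known. They are a small set among the 21887 coding genes of the autosomes, X and Y. In the list of ATF4 peaks from mouse regulatory T cells, 15 of the 36 had at least 1 assigned peak, against 12.9% of all coding genes. The 15 genes held 16 of the 4544 peaks in the list. Asns, Amd1, Got1, Pck2, Gpt2, Pycr1, Bcat1 and Aldh18a1 had the highest fold enrichments, between 10.1 and 5.76. No peak was listed for the 4 genes of the arginine and urea cycle group or the 3 of glycine cleavage. The same held for the 5 of the folate and mitochondrial one-carbon group. Counts of 0 in groups this small do not stand apart from the 12.9%. In a separate list of serine synthesis and folate one-carbon enzymes, 6 of 10 had a promoter peak, against 11.3% of all coding genes. That list holds further enzymes of the folate one-carbon pathway, so the group of 5 is only a part of it.

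The peaks come from chromatin immunoprecipitation and sequencing (ChIP-seq) with an ATF4 antibody, in 2 immunoprecipitated samples, and the series also has 2 input samples of sheared chromatin. How the inputs entered the peak calls was not stated. Cells were CD4+CD25+ cells enriched as regulatory T cells, fixed in 1% formaldehyde for 10 min. The sample labels give spleen as the tissue and the series' design gives spleen and lymph nodes. All samples share this cell type, and the labels name no treatment. Strain, genotype, age and any pooling of mice were not stated in the labels. CD25 also marks activated CD4+ T cells, and the list has no expression values with which to check the cell label. For the same reason the shares of all coding genes given below and above were not limited to genes expressed in these cells. The deposited result is 1 peak list for all samples, so no value below has a replicate error or a test, and the depth of each sample is unknown. Fold enrichment, a linear ratio at the peak summit, and −log10 q are the authors' values for each peak and were compared within the list only.

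ATF4 is a basic leucine zipper transcription factor whose protein is made in greater amounts when amino acids run short or protein folding fails. It pairs with C/EBP family proteins on composite sites, called C/EBP-ATF response elements (CARE), and is known for turning on genes that make, import and charge amino acids. Asparagine synthesis, proline synthesis and the aminotransferases that move nitrogen between glutamate, aspartate and alanine are among its best-known metabolic targets. Polyamine synthesis draws on ornithine and on S-adenosylmethionine, the methyl donor of the methionine cycle, and so ties these pathways together.

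The CARE core was searched as TGATGNAA on both strands, in RefSeq promoter sequences of build GRCm38.p6 that run from 250 bases before to 50 bases after each gene start. Sequences were found for 29 of the 36 genes. The core was present in 4 of the 29, those of Asns, Pycr1, Got1 and Pck2, against 4.13% of 17492 coding genes with a sequence. All 4 of these genes had a promoter peak. Over the whole list, though, this core was no more frequent in genes with a promoter peak, 79 of 1998 or 3.95%. The other motifs searched were more frequent in those genes than in all coding genes. The matches are given with 15 bases on each side, each read along the strand on which the core runs left to right and with the core in capitals, because they lie at the summits of the peaks.
Asns: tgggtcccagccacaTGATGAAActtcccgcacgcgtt
Pycr1: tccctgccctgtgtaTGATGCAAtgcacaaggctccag
Got1: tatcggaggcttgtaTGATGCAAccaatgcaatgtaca
Pck2: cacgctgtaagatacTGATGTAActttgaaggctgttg

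The Got1 and Pycr1 cores hold TGATGCAA, that of Asns TGATGAAA and that of Pck2 TGATGTAA. In Pycr1 the next base completes the full element TGATGCAAT, which 1 of the 29 genes and 0.206% of coding genes held. Of the 1998 coding genes with a promoter peak and a sequence, 8 or 0.400% held it. The core runs with the gene in Asns and Pycr1, and against it in Got1 and Pck2. Its centre lay 99.5 bases before the start in Pycr1, 99.5 in Pck2 and 98.5 in Got1, and 19.5 before it in Asns. These distances are from the start of the RefSeq promoter sequence. For Pck2 that start, 55540266, differs from the deposited start, 55540263, from which its summit is counted below. Thus 3 genes of different pathways had the core at nearly the same distance from the start.

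The core also lay close to the peak summit, the position where the authors' caller placed the strongest signal. The distance from core centre to summit was 5.5 bases in Pycr1, 10.5 in Got1, 13.5 in Asns and 16.5 in Pck2. Of the 10 genes of the set with a sequence and a summit inside it, these 4 had a core within 25 bases of the summit. Across all coding genes with a summit inside the sequence, 20 of 913 did, or 2.19%. Of those 20, 4 belong to the set and 4 are cytosolic tRNA synthetase genes. Among the genes of this kind in the upper 25% by fold enrichment, 16 of 214 had the core there, or 7.48%. The limit of 25 bases was chosen after the distances had been seen, and a match is a description of the letters and not a measured binding site.

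The whole promoters of the 4 genes follow, since they show where the core sits before the start. Each is written 5′ to 3′ along the gene, with the core in capitals in whichever direction it runs, and the gene start is the base after the first 250.
Asns promoter, chr6:7693160-7693459, minus strand: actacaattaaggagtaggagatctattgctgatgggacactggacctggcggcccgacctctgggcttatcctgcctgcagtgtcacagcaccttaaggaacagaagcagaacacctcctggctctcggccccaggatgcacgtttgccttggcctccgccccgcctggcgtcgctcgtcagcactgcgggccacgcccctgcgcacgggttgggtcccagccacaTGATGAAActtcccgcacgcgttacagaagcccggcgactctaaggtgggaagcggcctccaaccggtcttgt
Pycr1 promoter, chr11:120643699-120643998, minus strand: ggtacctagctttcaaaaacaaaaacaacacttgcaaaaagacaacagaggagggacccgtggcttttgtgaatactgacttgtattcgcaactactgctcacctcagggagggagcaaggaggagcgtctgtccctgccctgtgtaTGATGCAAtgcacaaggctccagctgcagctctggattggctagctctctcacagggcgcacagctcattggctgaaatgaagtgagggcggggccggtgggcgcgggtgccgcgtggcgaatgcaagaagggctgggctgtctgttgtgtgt
Got1 promoter, chr19:43524556-43524855, minus strand: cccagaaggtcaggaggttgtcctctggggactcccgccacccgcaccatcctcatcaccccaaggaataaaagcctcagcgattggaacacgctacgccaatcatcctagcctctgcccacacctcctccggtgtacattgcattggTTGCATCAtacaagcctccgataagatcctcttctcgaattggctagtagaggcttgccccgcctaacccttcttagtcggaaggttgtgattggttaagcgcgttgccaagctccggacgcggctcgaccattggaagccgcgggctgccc
Pck2 promoter, chr14:55540016-55540315, plus strand: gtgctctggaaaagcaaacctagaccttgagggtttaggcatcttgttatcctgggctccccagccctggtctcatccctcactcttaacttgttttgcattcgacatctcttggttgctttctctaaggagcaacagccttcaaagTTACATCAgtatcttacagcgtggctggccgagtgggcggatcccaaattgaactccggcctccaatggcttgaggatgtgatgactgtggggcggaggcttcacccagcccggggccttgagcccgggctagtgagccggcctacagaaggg

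The next promoters belong to genes with strong peaks and summits inside the sequence, but no CARE core in it. In Aldh18a1 the capitals mark an E-box (CACGTG), a site read by helix-loop-helix factors such as MYC and USF, and Amd1 holds none of the motifs searched. The Aldh18a1 E-box centre lay 98.5 bases from the summit.
Amd1 promoter, chr10:40302139-40302438, minus strand: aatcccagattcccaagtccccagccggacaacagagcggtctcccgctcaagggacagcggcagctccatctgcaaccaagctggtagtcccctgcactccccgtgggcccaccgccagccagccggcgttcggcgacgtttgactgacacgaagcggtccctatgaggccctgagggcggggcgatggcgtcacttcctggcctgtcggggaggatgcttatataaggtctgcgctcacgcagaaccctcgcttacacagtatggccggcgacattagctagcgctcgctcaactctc
Aldh18a1 promoter, chr19:40588414-40588713, minus strand: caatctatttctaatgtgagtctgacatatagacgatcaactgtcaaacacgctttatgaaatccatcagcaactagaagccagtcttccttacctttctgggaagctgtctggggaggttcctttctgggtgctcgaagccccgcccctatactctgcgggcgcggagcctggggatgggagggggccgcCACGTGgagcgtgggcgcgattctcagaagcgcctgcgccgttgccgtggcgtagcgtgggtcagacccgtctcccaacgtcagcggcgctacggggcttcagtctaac

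The E-box was in 5 of the 29 sequences, those of Aldh18a1, Ass1, Sms, Cbs and Tyms, against 8.91% of coding genes, and only Aldh18a1 among the 5 had a peak. The cyclic AMP response element TGACGTCA and the C/EBP hybrid TGACGCAA were in 0 of 29, against 2.54% and 0.732% of coding genes. Shares were higher among the 1998 coding genes with a promoter peak and a sequence. They were 12.3% for the E-box, 4.65% for TGACGTCA and 1.55% for TGACGCAA. The differences were not tested. Absence in this window says only that the letters are not there: the summits of Gpt2, Bcat1, Bcat2, Odc1 and Sat1 lay outside the searched sequences.

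**Figure D1:**
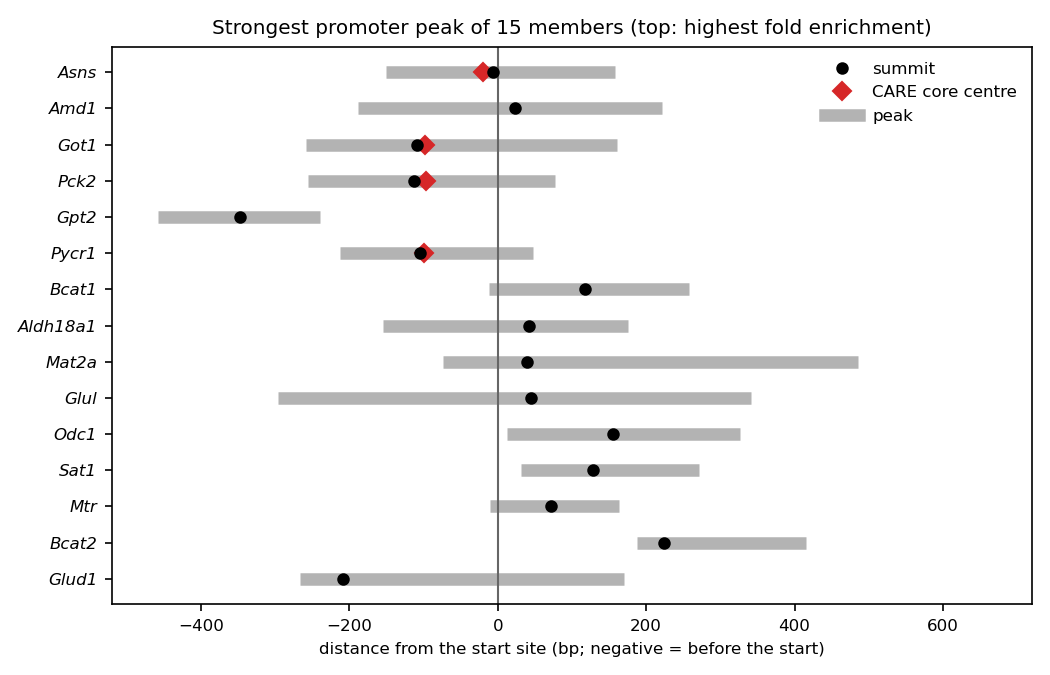
Position of the strongest promoter peak of the 15 genes around the start site, in bp along the gene, ordered from the highest fold enrichment at the top. Grey bars are peaks, black points summits and red diamonds CARE core centres, which lie 5.5 to 16.5 bases from the summit in Asns, Got1, Pck2 and Pycr1.

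All 15 genes with a peak had one of the authors' Promoter class, so 15 of the 36 did, against 11.3% of all coding genes. Of the 2824 coding genes with any assigned peak, 2476 had a promoter peak. All 16 peaks were of that class, which takes in 74.3% of the 4544 peaks, and 15 of them were within 1 kb of the start. In 11 of the 36 genes the peak lay over the start site itself, against 7.86% of coding genes. Summits of the strongest peaks lay from 347 bases before to 224 bases after the start, with 6 before and 9 after it. The peaks were 176 to 638 bp wide, with a median of 315 bp, beside a median of 266 bp for the strongest promoter peaks of all coding genes.

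The strongest promoter peaks of the 15 genes had fold enrichments from 2.62 to 10.1 with a median of 5.76, beside a median of 3.25 over the 2476 coding genes with a promoter peak. The upper 25% of those 2476 began at 4.06, and 11 of the 15 genes were in it, with Odc1 at 4.07 just inside. By −log10 q, 11 of the 15 were also in the upper 25%, which began at 12.8. The genes without a peak have no value, so these figures describe the 15 genes that had passed the peak call and not the whole set.

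**Figure D2:**
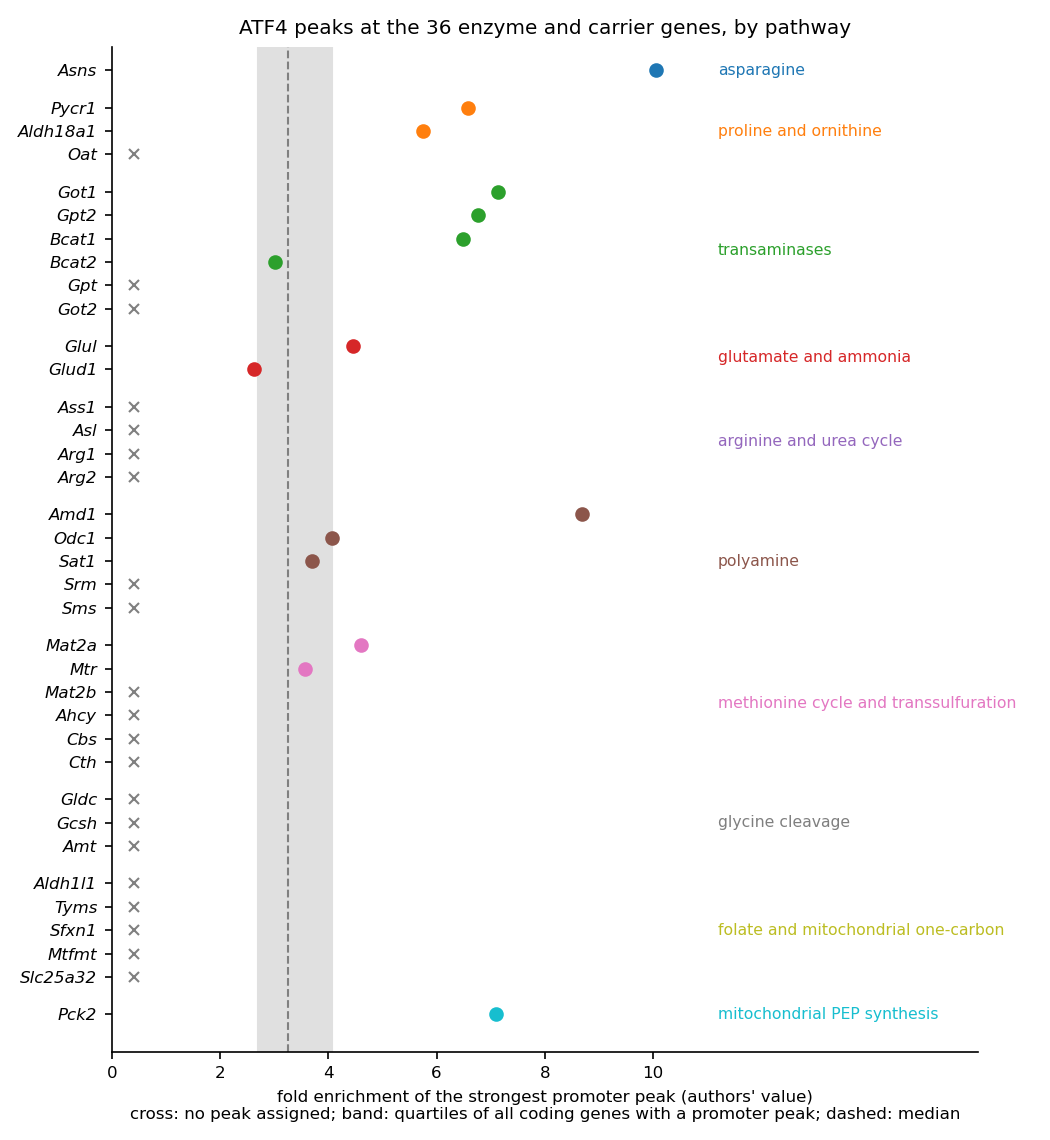
Fold enrichment of the strongest promoter peak (authors' linear value) of each of the 36 genes, grouped by pathway, with crosses for the 21 genes without a peak. The band spans the quartiles of all coding genes with a promoter peak, 2.70 to 4.06, and the dashed line is their median of 3.25.

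Asparagine synthesis was represented by Asns, which encodes the enzyme that makes asparagine from aspartate and glutamine. Its peak had the highest fold enrichment of the set, 10.1, with a −log10 q of 37.1, and ranked 70 by fold enrichment in the whole list. It lay at chr6:7693051-7693360 on mm10, with the summit 6 bases before the start. Of the other genes fixed for this pathway, Aspg, Asrgl1 and Nit2, which break down asparagine or related amides, 0 of 3 had a peak. That count is too small to stand apart from the 12.9% of all coding genes.

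In the proline and ornithine group, 2 of 3 genes had a peak, against 12.9% of all coding genes. Both act in proline synthesis from glutamate. Aldh18a1 encodes the bifunctional enzyme of the first steps, and its peak had a fold enrichment of 5.76 and a −log10 q of 45.0 (chr19:40588288-40588617). Pycr1 encodes the mitochondrial reductase of the last step, with 6.58 and 34.0 (chr11:120643700-120643960). The Aldh18a1 summit lay 42 bases after its start, and the Pycr1 summit 105 bases before its own. Oat, whose enzyme links ornithine to the same intermediate, had no peak, and the nearest listed peak was 276 kb from the gene. Of 6 other genes of proline metabolism, 1 had a promoter peak, or 16.7%, near the 11.3% of all coding genes. It was P4ha1, a subunit of the collagen prolyl hydroxylase, at 3.90. Pycr3, which encodes a sister reductase of Pycr1, had none.

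Of the aminotransferase genes, 4 of 6 had a promoter peak, against 11.3% of all coding genes. They came in pairs for cytosolic and mitochondrial enzymes, and the members of each pair differed in the presence or the fold enrichment of a peak. Got1, the cytosolic aspartate aminotransferase gene, had a peak at 7.13 with a −log10 q of 62.7 (chr19:43524444-43524863), while mitochondrial Got2 had none within 1160 kb. For alanine the mitochondrial gene had the peak: Gpt2 reached 6.77 with a −log10 q of 19.4 (chr8:85492118-85492337), and cytosolic Gpt had none within 70.6 kb. The branched-chain aminotransferase genes both had one, at 6.48 for cytosolic Bcat1 and 3.01 for mitochondrial Bcat2. Peaks thus did not follow one compartment across the pairs.

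Within this group the position of the peaks varied more than in the others. The Gpt2 summit lay 347 bases before the start, the farthest upstream of the set, and the Bcat2 summit 224 bases after its start, the farthest downstream among the strongest peaks. Got1 was the only member with more than 1 peak, the weaker one at 3.52 with a −log10 q of 4.60 and its summit 1377 bases inside the gene. The Bcat2 peak had the lowest −log10 q of the 16, at 3.08. Of 15 other genes of transamination and branched-chain breakdown, 2 had a promoter peak, or 13.3%, near the 11.3% of all coding genes: Bckdha, a subunit of the branched-chain ketoacid dehydrogenase, at 3.01, and Hibch, of valine breakdown, at 2.90.

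The 2 genes for enzymes that fix and release ammonia at glutamate both had peaks, of lower fold enrichment, against 12.9% of all coding genes. A count this small was not tested against that share. Glul, which encodes glutamine synthetase, had 4.46 with a −log10 q of 25.6, and its peak was the widest of the set at 638 bp. Glud1, which encodes glutamate dehydrogenase, had 2.62 with a −log10 q of 3.65, the lowest fold enrichment of the set. Both promoters are shared: the start of Shld2 lies 210 bases before that of Glud1 on the opposite strand, and that of Gm38440 lies 153 bases before that of Glul. The Glud1 summit, 208 bases before the Glud1 start, was thus next to the start of Shld2, and to which gene the peak belongs was not tested. The peaks of Aldh18a1, Glul and Bcat2 likewise lay over other annotated genes, Gm27042 for Aldh18a1, Gm38440 and the microRNA gene Mir8114 for Glul, and 0610005C13Rik for Bcat2.

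Mitochondrial Pck2, which makes phosphoenolpyruvate from oxaloacetate, had a peak at 7.09 with a −log10 q of 39.2 (chr14:55540007-55540340). Its summit lay 113 bases before the start of the assigned transcript. Cytosolic Pck1 and pyruvate carboxylase gene Pcx had no peak, so 0 of the 2 other genes listed for this step did. That count is too small to stand apart from the 12.9% of all coding genes.

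Of the polyamine genes in the set, 3 of 5 had a promoter peak, against 11.3% of coding genes. Amd1 encodes the decarboxylase that turns S-adenosylmethionine into the donor of aminopropyl groups, and its peak had a fold enrichment of 8.69 (chr10:40301966-40302376). Its −log10 q of 70.5 was the highest of the 16 peaks. Odc1, which makes putrescine from ornithine, had 4.07 with a −log10 q of 27.8, and Sat1, which acetylates polyamines for breakdown or export, had 3.69 with 7.41. Their summits lay 155 and 129 bases after the start. Srm and Sms, the spermidine and spermine synthase genes, had none, and the nearest peaks were 17.05 and 106 kb from the genes.

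Other polyamine genes had promoter peaks in 4 of 10, against 11.3% of coding genes. Azin1, an inhibitor of the antizyme that drives destruction of ornithine decarboxylase, had 5.31 with a −log10 q of 31.5. Dhps, which uses spermidine to modify a translation factor, had 4.18 with 12.1. The other two, antizyme gene Oaz1 and the hydroxylase gene Dohh that acts after Dhps, had 2.36 and 2.27. Thus some synthesis, breakdown and regulatory genes of the pathway had peaks, and other genes of each kind had none. The highest value was that of Amd1.

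In the methionine cycle and transsulfuration, 2 of 6 genes had a promoter peak, against 11.3% of coding genes, and a count this small was not tested against that share. Mat2a, which encodes the catalytic subunit of the enzyme that makes S-adenosylmethionine, had 4.60 with a −log10 q of 25.3. Mtr, which encodes methionine synthase, had 3.57 with 7.90. Both peaks lay over the start. Mat2b, the regulatory subunit gene, and Ahcy, whose enzyme clears the product of methylation, had none. Nor did Cbs and Cth, the transsulfuration genes that lead from homocysteine to cysteine, where the nearest peaks were 92.2 and 21.9 kb away.

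The Mat2a peak also lay over Particl, a noncoding RNA gene that starts inside Mat2a and runs through its promoter in the other direction. Beyond the downstream end of Mat2a lay a pair of peaks that the authors assigned to Particl, 6.06 and 6.81 kb from its start. They had fold enrichments of 4.64 and 3.68, were 176 and 921 bases from the end of Mat2a, and lay inside the span of Ggcx, which encodes a vitamin K-dependent carboxylase. Of 19 other genes of the methionine cycle, methionine salvage and sulfur breakdown, 1 had a promoter peak, or 5.26%, against 11.3% of all coding genes. It was the salvage gene Enoph1, at 2.93.

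The remaining groups had no listed peak. Since 12.9% of all coding genes had one, counts of 0 in groups this small do not stand apart from the background. In the arginine and urea cycle group this was so for Ass1 and Asl, which make arginine from citrulline, and for the arginase genes Arg1 and Arg2, 0 of 4 in all. In glycine cleavage it held for Gldc, Gcsh and Amt, 0 of 3, which encode parts of the mitochondrial complex that breaks glycine down to a folate-bound carbon unit. In the folate and mitochondrial one-carbon group it held for 0 of 5 with a peak: Aldh1l1, which oxidises formyl folate, Tyms, which makes thymidylate, the serine carrier gene Sfxn1, the initiator tRNA formylase gene Mtfmt and the folate carrier gene Slc25a32. Among other genes fixed for these groups, 0 of 5, 0 of 4 and 3 of 10 had a promoter peak, against 11.3% of all coding genes. Those 3 were the purine synthesis gene Gart at 4.22, Sfxn3, related to Sfxn1, at 3.23, and Mthfs at 2.85.

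For the 21 genes without a peak the nearest listed peak lay between 3.58 and 1160 kb from the gene, with a median of 82.5 kb, and in 17 of them it was over 50 kb away. Amt was the only one with a peak within 10 kb, at a fold enrichment of 2.31, which was assigned to Rhoa. No peak assigned to a neighbour lay inside any of the 36 genes. A gene without a peak in this list may still be bound below what the unknown depth allowed to be called.

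The order of the peaks depended on the measure. By fold enrichment Asns came first of the 16 and Amd1 second, and by −log10 q Amd1 came first, with Asns behind Got1, Aldh18a1 and Pck2 as well. Bcat1 and Gpt2 had high fold enrichments, 6.48 and 6.77, with lower −log10 q, 13.8 and 19.4. Odc1 had a lower fold enrichment of 4.07 with a −log10 q of 27.8. Sat1, Mtr, Bcat2 and Glud1 were the lowest by both among the strongest peaks of the set. Of these, only Bcat2 and Glud1 were below the median fold enrichment of coding genes with a promoter peak, 3.25.

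**Figure D3:**
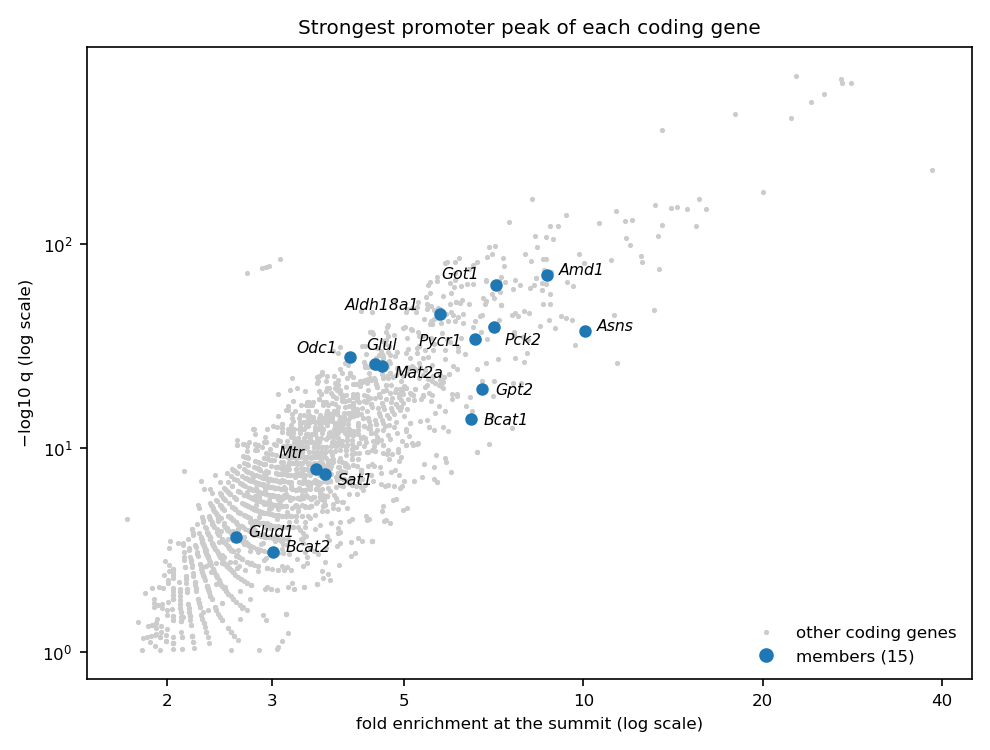
Fold enrichment at the summit against −log10 q, both on log axes, for the strongest promoter peak of each coding gene, with the 15 genes of the set in blue. Among these 15, Asns lies farthest right at 10.1 and Amd1 highest at 70.5, and Bcat2 and Glud1 lie lowest, while other coding genes reach beyond them on both axes.

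The share of 41.7% with a promoter peak stood below those of the tRNA synthetase list and of the serine and folate list. It stood above that of the other genes of the same pathways. These differences were not tested. Cytosolic tRNA synthetase genes had one in 13 of 20, where fold enrichment had a median of 8.66 and reached 25.3. Enzymes of serine synthesis and folate one-carbon metabolism had one in 6 of 10, with a median of 6.92. The CARE core was in 5 of 13 synthetase promoters with a sequence and in 0 of 9 of the serine and folate enzymes. The share of all coding genes with a sequence was 4.13%, and 0 of 9 does not stand apart from it. The other genes of the pathways had promoter peaks in 11 of 77, or 14.3%, with a median of 3.01. This is close to the coding background of 11.3% and 3.25. The 77 leave out the serine and folate list, which holds folate one-carbon enzymes, and some genes not reported here. Their share and median thus depend on how the lists were divided.

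**Figure D4:**
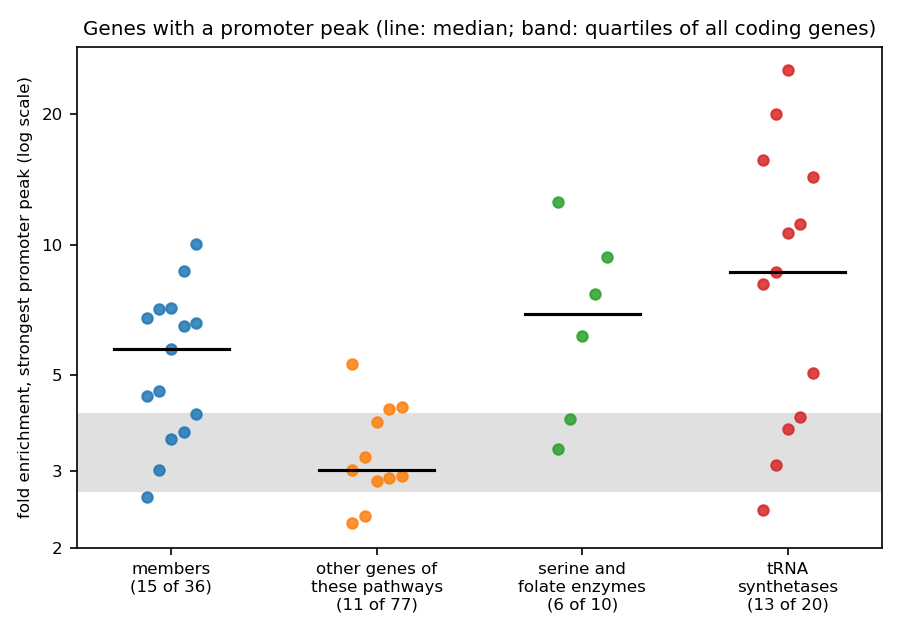
Fold enrichment (log axis) of the strongest promoter peak of each gene that had one, in the set, in other genes of its pathways, in serine and folate enzymes and in cytosolic tRNA synthetases. Points are genes, lines are medians of 5.76, 3.01, 6.92 and 8.66, and the band spans the quartiles of all coding genes.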

How the data were processed

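Per the submitters' processing notes, the authors used Trim Galore, Bowtie2, MACS2 and deepTools with build mm10. Versions, pooling of replicates, the use of inputs and the treatment of multi-mapping reads were not stated in these notes or the labels. The deposited fold enrichment, −log10 p, −log10 q, class, gene and distance to the start site are the authors' values in 1 list, with no value per sample. Peak starts were raised by 1, and the deposited distance was then recovered in 4544 of 4544 peaks. The gene symbol in field 17 assigned peaks to genes, and Promoter is the authors' class, up to 3 kb.

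Genes and promoters came from RefSeq tables of GRCm38.p6. The start of a promoter sequence equalled the deposited start in 1435 of 1998 coding genes with a promoter peak and a sequence. All 1864 overlapping pairs on opposite strands held the same letters. The motif scan was tested on simulated data.

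The 36 genes and all lists were chosen with earlier results of these data known, so counts are described beside all coding genes and not tested. The genes to be named were the 36, the 2 strongest others per pathway, and genes holding a peak within 3 kb of the 36. Aspg, Asrgl1, Nit2, Pycr3, Pck1, Pcx, Oaz1, Dohh, Mthfs, Apip, Aldh4a1 and Amd-ps4, and genes of nearest or overlapping peaks and starts, were added after values were seen. Some genes of these pathways are not reported here and stand in no count of other pathway genes. Alternatives covered peak thresholds, promoter and motif definitions and peak assignment. Python 3.11.15, pandas 2.3.3, numpy 2.4.6, scipy 1.17.1 and matplotlib 3.10.9 were used.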

Additional observations from a re-analysis of the deposited data

How the results depend on the processing

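Of 16 alternatives, 13 left their result within a set range. For counts the range was 1.5 times the count. For the median fold enrichment it was 3.69 to 7.09, a 95% interval by order statistics over the 15 genes. These genes were chosen and are not replicates, so the interval is only a range for this comparison and not an error. The count of genes with a promoter peak ranged from 11, for peaks over the start, to 15. With peaks above the list's median fold enrichment it was 13, against 5.46% of coding genes. The median ranged from 5.32 to 6.48. The count of CARE cores moved with its definition. It was 4 with TGATGNAA, 1 with the full TGATGCAAT, 1 in the 100 bases before the start, and 2 with TGANGCAA, an alternative added after the data were seen. In the shorter window the background was 1.53%, and the cores of Pycr1, Got1 and Pck2, centred 98.5 to 99.5 bases before the start, straddle its edge. No paired analysis was possible because the list has no values per sample, and leaving out a replicate was not run for the same reason. The unknown depth limits what can be said of genes without a peak.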

Other observations

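Beyond the promoters, other genes of these pathways had peaks of other classes. Apip, a methionine salvage gene, had an Intron peak at a fold enrichment of 7.09, 10848 bases from its start. Aldh4a1, of proline breakdown, had 2 peaks, the stronger a 3′ UTR peak at 4.61.

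Amd1 has 8 copies in the gene table, Amd2 and 7 pseudogenes, and 1 of them had an assigned peak. This was Amd-ps4, with a promoter peak at 6.95 and a −log10 q of 10.5, beside 8.69 and 70.5 at Amd1. Whether reads shared between copies bear on either value was not tested.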
